A study of Bos taurus with 8 samples.

Results

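The genes described here are 8 members of the cholesterol synthesis pathway and its control: HMGCS1, IDI1, FDFT1, SQLE, CYP51A1, DHCR7, INSIG1 and SREBF2. They were taken as every probe that the scanner files name after 1 of these genes, which gave 18 probes of the 51282 on the array and 8 of the 12062 genes tested. Although the group was assembled under a name that also covers LDL uptake, none of the 8 is itself a lipoprotein receptor. The cells are given as primary bovine Müller glia, the radial support cells of the retina, from bovine eye and kept in DMEM for 18 to 21 days, while the text on RNA extraction calls them astrocytes. By the sample titles they fall into Control (letters A and B, 2 arrays), HIV-1 TAT at 100 ng/ml for 24 h (letters A, B and C, 3 arrays) and HIV-1 Gp120 at 60 ng/ml for 24 h (letters A, B and C, 3 arrays). TAT is the viral transactivator of transcription and Gp120 the envelope glycoprotein. The text on treatment is the same for all 8 samples and names both proteins together, so the groups rest on the titles alone. The labels do not say whether the letters are separate cultures or animals, and a p-value here therefore reflects nothing but the spread among these 8 arrays, which may be technical.

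Cells make cholesterol from acetyl units. HMGCS1 (hydroxymethylglutaryl-CoA synthase) feeds the mevalonate pathway, IDI1 (isopentenyl diphosphate isomerase) interconverts the isoprenoid building blocks, FDFT1 (squalene synthase) makes squalene, and SQLE (squalene epoxidase) oxidises it as the first oxygen-dependent step. CYP51A1 (lanosterol 14-alpha-demethylase) and DHCR7 (7-dehydrocholesterol reductase) then remodel the sterol ring. SREBF2 encodes SREBP2, the transcription factor that drives this pathway when membrane sterol is low, and INSIG1 encodes an endoplasmic reticulum protein that retains SREBP when sterol is plentiful and is itself an SREBP target. In the retina glia are a main site of cholesterol synthesis and lipoprotein secretion.

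Most genes were read by more than 1 probe, and the probes of a gene did not always move together. The 5 probes shown were chosen among those that start upstream of their gene's brightest probe, for results below in which they do or do not repeat it. Of INSIG1, CYP51A1 and FDFT1 another upstream probe is described by its values alone. Each is printed 5′ to 3′ as given in the scanner files, with positions of build Btau_3.1 and no part marked in capitals.
HMGCS1 A_73_P277761: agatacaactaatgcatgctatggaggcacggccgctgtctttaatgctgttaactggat
IDI1 A_73_P364656: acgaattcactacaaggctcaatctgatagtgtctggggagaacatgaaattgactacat
FDFT1 A_73_P337871: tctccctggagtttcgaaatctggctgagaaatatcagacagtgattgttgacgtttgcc
SREBF2 A_73_P371690: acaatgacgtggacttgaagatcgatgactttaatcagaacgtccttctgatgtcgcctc
SREBF2 A_73_P091831: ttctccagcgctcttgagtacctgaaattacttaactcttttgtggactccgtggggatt

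The HMGCS1 probe lies at chr20:33439105-33439164 on the plus strand and starts at base 586 of the transcript per the files, while the brightest HMGCS1 probe starts at base 3447. The IDI1 probe lies at chr13:46498059-46498118 on the plus strand, starting at base 801 against base 1169 for the brightest. The FDFT1 probe lies at chr8:7478872-7478931 on the minus strand, starting at base 482 against base 1633. The SREBF2 probes lie at chr5:120015413-120015472 and chr5:120033265-120033324 on the plus strand, starting at bases 1237 and 2496 against base 3433. SQLE and DHCR7 had 1 probe each, IDI1, CYP51A1 and INSIG1 had 2, HMGCS1 and FDFT1 had 3, and SREBF2 had 4.

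All levels are log2 processed intensity minus the 75th percentile of the array, so 0 is the level of that percentile, and a difference of 1 is a change by a factor of 2. Between 55.46% and 64.62% of an array's spots were well above background, and 0 were saturated. Of the 18 probes, 15 were well above background on all 8 arrays. Row 1 of the slide held Control A, Control B, TAT A and Gp120 A, and row 2 held the other 4 arrays. Scan 1 covered Gp120 B and C, and scan 2 the rest. Of 10 Müller glia markers 6 were well above background on all arrays, among them GLUL, SLC1A3, VIM and AQP4, but RLBP1 was so on 2 arrays, KCNJ10 on 1 and CA14 on 0. All 8 microglia and macrophage markers and 5 of 5 pericyte and smooth muscle markers were well above background on all arrays too. Levels of the cholesterol genes are therefore those of the whole culture, in which fewer cells of a type and less RNA per cell cannot be told apart.

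The first question was whether TAT or Gp120 changed the pathway. After adjustment 0 of the 8 genes passed for TAT against Control, for Gp120 against Control, for TAT against Gp120 or for the mean of both proteins against Control, and over all 12062 genes the share called was 0.0% in each (limma, Benjamini-Hochberg adjusted p under 0.05). At an unadjusted p under 0.05 stood 171, 345, 314 and 213 genes, of which 1 of the 8 in Gp120 minus Control and in the mean of both, INSIG1. SQLE, INSIG1 and IDI1 had the lowest values against Control, and the other 5 genes had differences between -0.28 and 0.30. The median over the 8 genes was -0.25 for TAT and -0.06 for Gp120, beside -0.04 and -0.03 over all genes tested.

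**Figure D1:**
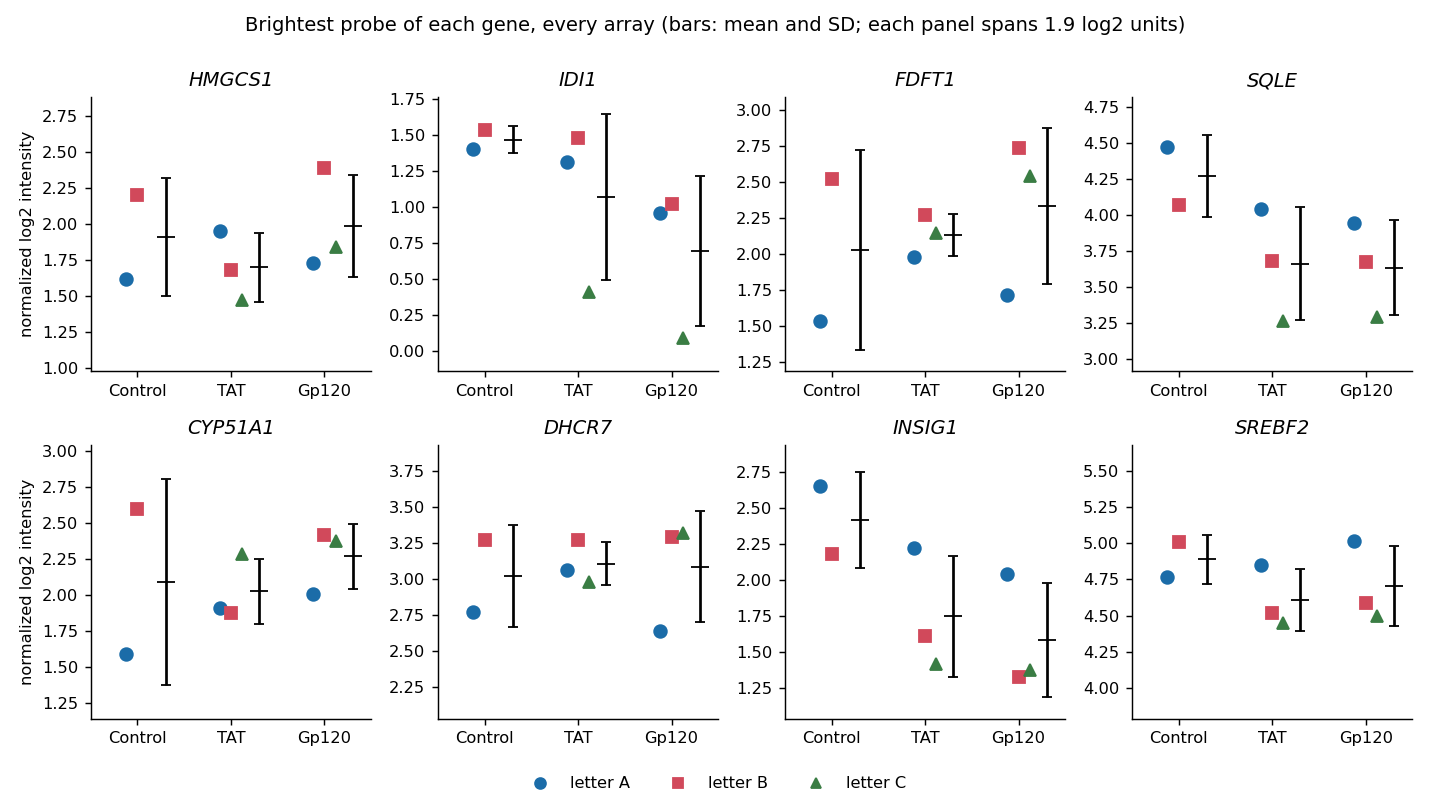
Normalized log2 intensity (vertical axis, relative to the 75th percentile of the array) of the brightest probe of each of the 8 genes on every array, by group, with the symbol giving the replicate letter and the black bar the group mean and SD. In each group SQLE and INSIG1 are highest on the letter A array (blue), IDI1 is lowest on both letter C arrays (0.41 and 0.09), and FDFT1 is lowest on the letter A array of each group.

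Of the enzymes of the mevalonate and isoprenoid steps, HMGCS1 stood at 1.62 and 2.20 in Control A and B, at 1.95, 1.68 and 1.47 in TAT A, B and C, and at 1.73, 2.39 and 1.84 in Gp120 A, B and C. The 3 groups overlapped. TAT minus Control was -0.21 (SE 0.29) and Gp120 minus Control 0.08 (SE 0.29), with adjusted p of 1.0 and 0.998. The inner HMGCS1 probe A_73_P277761 gave -2.57 and -1.29 in Control, -1.12, -2.98 and -3.08 in TAT, and -1.20, -1.87 and -3.15 in Gp120. Its letters spread more widely than its groups, with both high treated arrays in letter A, and its differences of -0.46 (SE 0.77) and -0.14 (SE 0.77) were smaller than their errors.

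IDI1 stood at 1.4 and 1.53 in Control, at 1.31, 1.48 and 0.41 in TAT, and at 0.96, 1.02 and 0.09 in Gp120. All 3 Gp120 arrays lay below both Control arrays, while TAT B lay between them. TAT minus Control was -0.40 (SE 0.40, adjusted p = 1.0) and Gp120 minus Control -0.77 (SE 0.40, fold 0.58, adjusted p = 0.998). Control has no letter C array, and both letter C arrays carry the lowest IDI1 values of their groups. The inner probe A_73_P364656 gave 0.96 and 0.76 in Control, 0.54, 0.69 and -0.17 in TAT, and 0.49, 0.91 and -0.07 in Gp120, with differences of -0.50 (SE 0.37) and -0.42 (SE 0.37). On it the Gp120 arrays overlapped Control, since Gp120 B lay between Control B and Control A.

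At the squalene steps FDFT1 stood at 1.54 and 2.52 in Control, at 1.98, 2.27 and 2.15 in TAT, and at 1.72, 2.74 and 2.54 in Gp120. Control A was the lowest array and Control B higher than all TAT arrays, so that the groups overlapped, and the differences were 0.10 (SE 0.39, adjusted p = 1.0) for TAT and 0.30 (SE 0.39, adjusted p = 0.998) for Gp120. The inner probe A_73_P337871 read -1.78 and -1.80 in Control, -1.75, -2.09 and -2.03 in TAT, and -1.56, -0.62 and -1.13 in Gp120, so that on this probe every Gp120 array lay above every other array. Its Gp120 minus Control difference was 0.69 (SE 0.30, adjusted p = 0.966 over probes in limma), and the third FDFT1 probe, A_73_P304616, gave 0.63 (SE 0.51). The share of all probes with every Gp120 array above every other array was not counted. On the brightest probes 0 of the 8 genes lay higher in Gp120 than in Control with no overlap.

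SQLE stood at 4.47 and 4.07 in Control, at 4.04, 3.68 and 3.26 in TAT, and at 3.94, 3.67 and 3.29 in Gp120. Both Control arrays lay above all 6 treated arrays, TAT A by 0.03 only, given Control B at 4.07. Fibroblast and stromal markers (5 of 6 tested, COL1A1 and DCN among them) summed to 79.5 to 89.7 in Control, 107 to 171 in TAT and 88.6 to 104 in Gp120. The sums of every other marker list overlapped between Control and each protein. Those of pericyte and smooth muscle markers were 90.2 to 181, 154 to 254 and 117 to 283. Those of microglia and macrophage markers were 273 to 352, 267 to 308 and 230 to 313. The part of these cell types in the SQLE differences was not tested. For SQLE, TAT minus Control was -0.61 (SE 0.31, fold 0.66, adjusted p = 1.0) and Gp120 minus Control -0.64 (SE 0.31, fold 0.64, adjusted p = 0.998). Their 95% intervals ran from -1.32 to 0.10 and from -1.35 to 0.08.

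Of the sterol ring enzymes, CYP51A1 stood at 1.59 and 2.6 in Control, at 1.91, 1.88 and 2.29 in TAT, and at 2.01, 2.42 and 2.38 in Gp120. Its 2 Control arrays were the lowest and the highest of all 8. DHCR7 stood at 2.77 and 3.27 in Control, at 3.06, 3.27 and 2.98 in TAT, and at 2.64, 3.29 and 3.32 in Gp120. The groups of both genes overlapped, and their differences from Control lay between -0.07 and 0.18 with SE of 0.28 to 0.33. The second CYP51A1 probe gave -0.16 (SE 0.26) for TAT and -0.17 (SE 0.26) for Gp120.

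INSIG1, the sterol-dependent brake on SREBP, stood at 2.65 and 2.18 in Control, at 2.22, 1.61 and 1.42 in TAT, and at 2.04, 1.33 and 1.38 in Gp120. All 3 Gp120 arrays lay below both Control arrays, and TAT A lay just above Control B. Gp120 minus Control was -0.83 (SE 0.34, fold 0.56, 95% interval -1.61 to -0.04, adjusted p = 0.998 in limma), and TAT minus Control was -0.66 (SE 0.34, fold 0.63, adjusted p = 1.0). A second INSIG1 probe, A_73_P429676, was well above background on both Control arrays, 2 of 3 TAT arrays and 1 of 3 Gp120 arrays, and was kept through Control alone. Its values of -0.60 (SE 0.51) for TAT and 0.33 (SE 0.51) for Gp120 rest in part on signals near background.

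SREBF2 stood at 4.77 and 5.01 in Control, at 4.85, 4.52 and 4.45 in TAT, and at 5.02, 4.59 and 4.50 in Gp120. The groups overlapped, with TAT minus Control at -0.28 (SE 0.24) and Gp120 minus Control at -0.19 (SE 0.24). The probe A_73_P148781 read 3.43 and 3.21 in Control, 3.52, 3.16 and 3.44 in TAT, and 3.77, 3.60 and 3.89 in Gp120, so that all 3 Gp120 arrays were above all others and the difference from Control was 0.44 (SE 0.22). Here too the share of all probes with this separation was not counted. The inner probe A_73_P371690 was well above background on all 3 TAT arrays and on no other array, so it was kept through TAT alone, and a higher TAT value was built into that choice. As a description with no test drawn from it, its mean TAT level was 1.27-fold that of Control (0.35 with SE 0.54 in the fit). The arrays overlapped, with TAT B (-5.66) below Control A (-5.31), Control B (-5.43) and Gp120 A (-5.4). Against Gp120 the mean TAT level was at least 2.1-fold higher. There each dim array counts with its own value or the lowest value well above background on it, whichever is higher. The low Gp120 mean came from Gp120 B (-7.09) and Gp120 C (-6.94), the only arrays of scan 1. Within letter A, where both arrays are of scan 2, TAT minus Gp120 was 0.60. The other inner probe, A_73_P091831, gave -0.44 (SE 0.31) for TAT and -0.28 (SE 0.31) for Gp120. The 3 SREBF2 probes that were read in all groups had no common sign in either comparison.

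**Figure D2:**
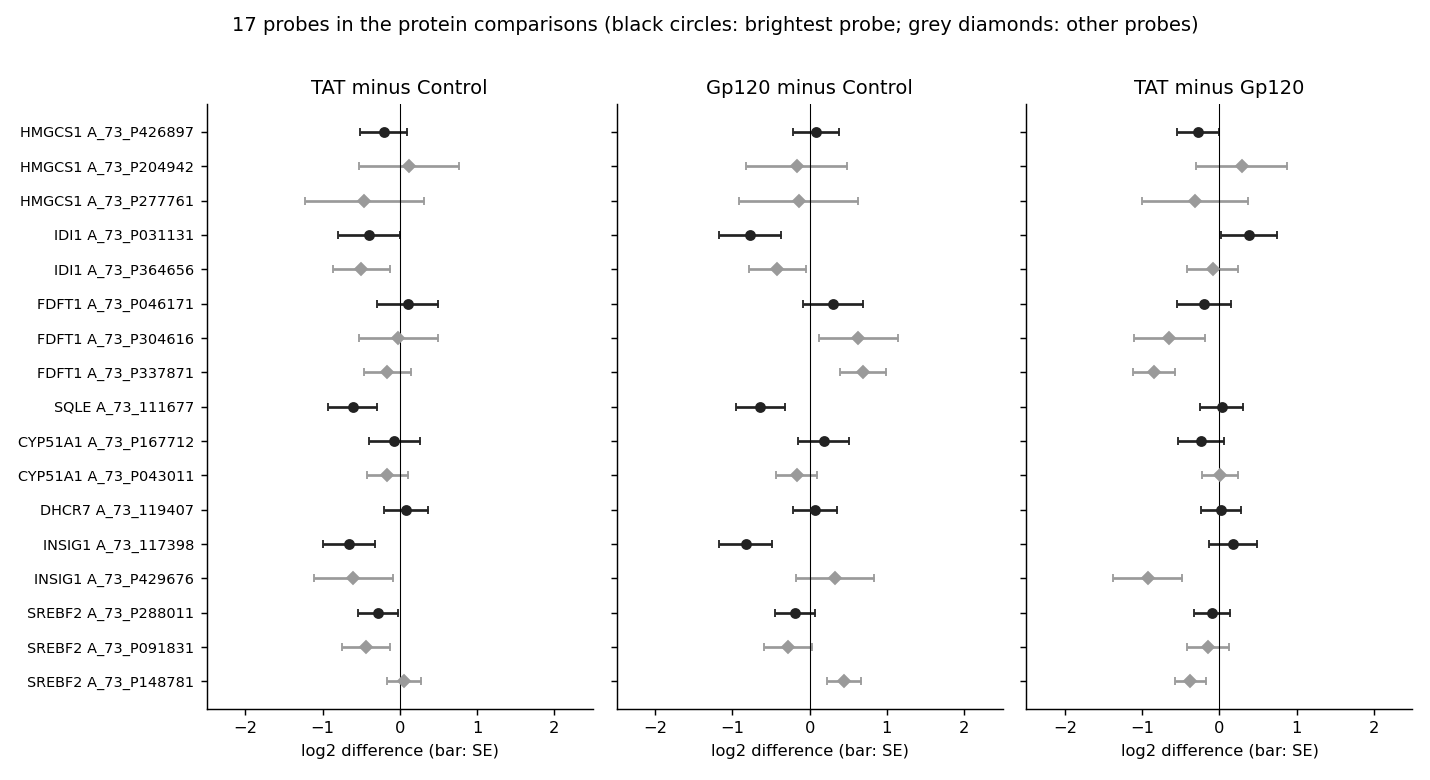
Log2 difference (horizontal axis) with its SE for the 17 probes that were well above background somewhere in every group, in TAT minus Control, Gp120 minus Control and TAT minus Gp120, black circles for the brightest probe of a gene and grey diamonds for its other probes. SQLE and the brightest INSIG1 probe lie below 0 against Control for both proteins, while the SREBF2 probes lie on both sides, from -0.28 to 0.44 for Gp120.

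Because the letters were taken to pair the arrays, each protein was also set against the Control array of its own letter. For Control B this pairing rests on the titles, since the array was as much like the letter C arrays as the letter B arrays. SQLE was at -0.43 and -0.39 in TAT A and B and at -0.53 and -0.40 in Gp120 A and B. INSIG1 was at -0.42 and -0.57 for TAT and at -0.60 and -0.85 for Gp120. IDI1 was at -0.08 and -0.05 for TAT and at -0.44 and -0.51 for Gp120. These 3 of the 8 genes were lower in both same-letter pairs for TAT, beside 32.8% of all genes, and the same 3 for Gp120, beside 29.0%. HMGCS1 (0.11 and 0.19) and FDFT1 (0.18 and 0.22) were higher in both pairs for Gp120, 2 of the 8 beside 18.6% of all genes. All these are readings of the brightest probe. For Gp120 the other HMGCS1 probes gave 0.73 and -0.56 (A_73_P204942) and 1.37 and -0.57 (A_73_P277761). The inner IDI1 probe gave -0.47 and 0.15, and the second INSIG1 probe, near background on several arrays, 0.68 and 0.29. The other FDFT1 probes were above 0 in both pairs. With no regard to letters, 1 of the 8 (SQLE) lay lower in TAT than in Control with no overlap, beside 9.77% of all genes, and 3 of the 8 (SQLE, INSIG1 and IDI1) in Gp120, beside 8.33%. HMGCS1, FDFT1, CYP51A1 and SREBF2 had opposite signs in the 2 pairs for TAT, at 0.33 and -0.52, 0.44 and -0.25, 0.32 and -0.72, and 0.07 and -0.48.

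**Figure D3:**
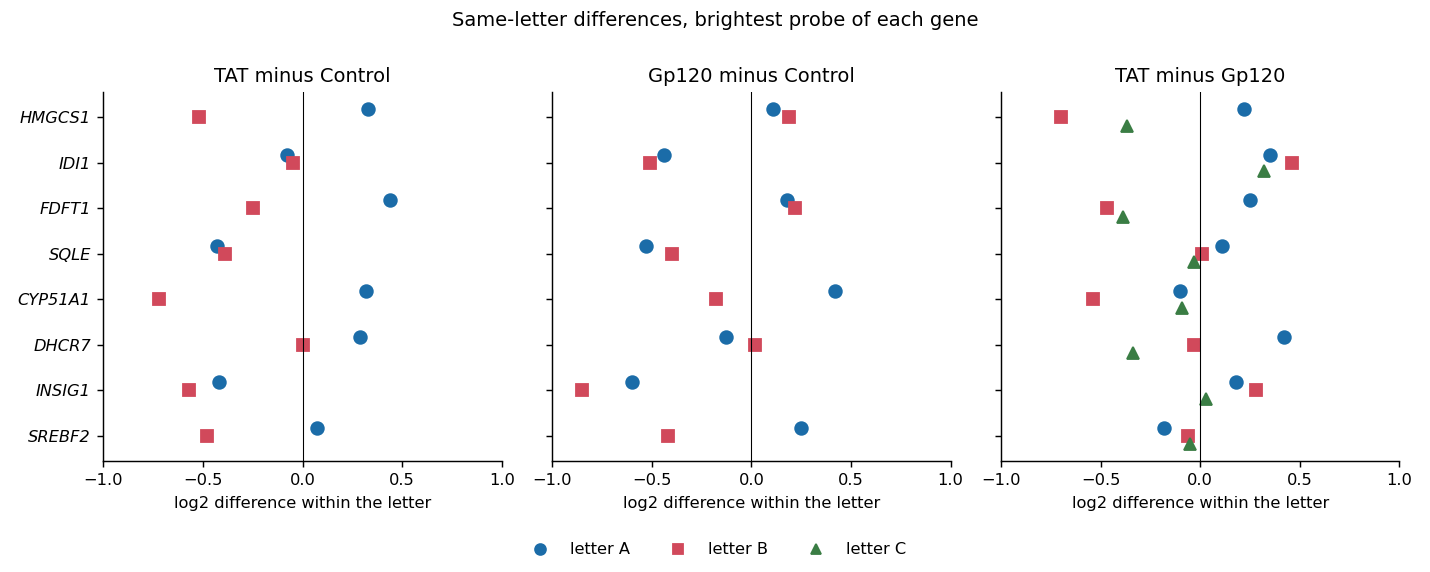
Same-letter log2 differences (horizontal axis) of the brightest probe of each gene, 1 symbol per letter, for TAT minus Control, Gp120 minus Control and TAT minus Gp120. SQLE and INSIG1 lie left of 0 in both letters for both proteins, from -0.39 to -0.85, and CYP51A1 and SREBF2 lie on opposite sides of 0 in letters A and B.

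In the paired fit, with the letters as a replicate block, INSIG1 was at -0.53 (SE 0.17, adjusted p = 0.915) for TAT and -0.70 (SE 0.17, adjusted p = 0.771) for Gp120 in limma. SQLE was at -0.42 (SE 0.16, adjusted p = 0.915) and -0.45 (SE 0.16, adjusted p = 0.771), and IDI1 at -0.08 (SE 0.16) and -0.46 (SE 0.16). At an unadjusted p under 0.05 were then 2 of the 8 genes for TAT and 3 for Gp120, beside 594 and 732 of 12062, and after adjustment 0 genes passed in either. The inner IDI1 probe was at -0.24 (SE 0.21) for TAT and -0.16 (SE 0.21) for Gp120 in the paired fit. The second INSIG1 probe, near background on several arrays, was at -0.31 (SE 0.26) and 0.62 (SE 0.26). With slide row as a block in place of the letters INSIG1 was at -0.20 (SE 0.25) and -0.36 (SE 0.25) and SQLE at -0.27 (SE 0.28) and -0.29 (SE 0.28). Within row 1, where each protein has 1 array, they were at -0.19 and -0.37 and at -0.23 and -0.33.

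Set against each other, the 2 proteins gave similar readings for SQLE, with TAT minus Gp120 at 0.11, 0.01 and -0.03 in letters A, B and C and at 0.03 (SE 0.27) in the fit. For IDI1 the same differences were 0.35, 0.46 and 0.32, higher in TAT in all 3 letters, and 0.38 (SE 0.36, adjusted p = 1.0) in the fit, or 0.38 (SE 0.13, adjusted p = 0.58) in the paired fit in limma. Its inner probe gave 0.06, -0.22 and -0.10, so that the higher IDI1 signal in TAT was read by 1 of 2 probes. INSIG1 was higher in TAT too in all letters, by 0.18, 0.28 and 0.03, which makes 2 of the 8 beside 14.1% of all genes. Its second probe, near background on several arrays, gave -0.93 (SE 0.45). CYP51A1 (-0.10, -0.54 and -0.09) and SREBF2 (-0.18, -0.06 and -0.05) were lower in TAT than in Gp120 in all 3 on the brightest probe, which held for 17.9% of all genes. The second CYP51A1 probe did not repeat this (0.17, 0.04 and -0.18). Of the SREBF2 probes, A_73_P148781 did (-0.26, -0.45 and -0.45) and A_73_P091831 did not (-0.37, 0.27 and -0.37). FDFT1 was higher in TAT in letter A (0.25) and lower in letters B and C (-0.47 and -0.39), and its inner probe was lower in all 3 (-0.19, -1.47 and -0.91, with -0.85 and SE 0.27 in the fit over probes).

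The letters were compared next, since they were taken to pair the arrays across groups. With the group in the fit, 2 of the 8 passed in letter B minus letter A, beside 15.7% of all genes, 3 of the 8 in letter C minus letter A, beside 17.0%, and 1 of the 8 in letter C minus letter B, beside 1.6%. INSIG1 was lower in letter B than in letter A by -0.60 on the log2 scale (SE 0.14, fold 0.66, adjusted p = 0.0387) and in letter C by -0.70 (SE 0.17, fold 0.62, adjusted p = 0.0371). SQLE was lower in letter C than in letter A by -0.73 (SE 0.16, fold 0.60, adjusted p = 0.0281). FDFT1 was higher in letter B than in letter A by 0.76 (SE 0.19, fold 1.70, adjusted p = 0.0473).

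IDI1 was lower in letter C than in letter A by -0.88 (SE 0.16, fold 0.54, adjusted p = 0.017) and than in letter B by -1.0 (SE 0.16, fold 0.50, adjusted p = 0.0421), with letters A and B at a difference of 0.12 (SE 0.13). Letter C minus letter B was -1.07 in TAT and -0.93 in Gp120. The inner IDI1 probe shown above gave -0.72 (SE 0.21) and -0.84 (SE 0.21), the same pattern. The second INSIG1 probe was not well above background on 3 of the 8 arrays and is not set against the letters. Of the FDFT1 probes, A_73_P304616 gave 0.97 (SE 0.21) in letter B minus letter A and the inner probe 0.20 (SE 0.26). The HMGCS1 probes differed more: letter B minus letter A was 0.32 (SE 0.21) on the brightest, 1.22 (SE 0.33) on A_73_P204942 and -0.41 (SE 0.54) on the inner probe.

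**Figure D4:**
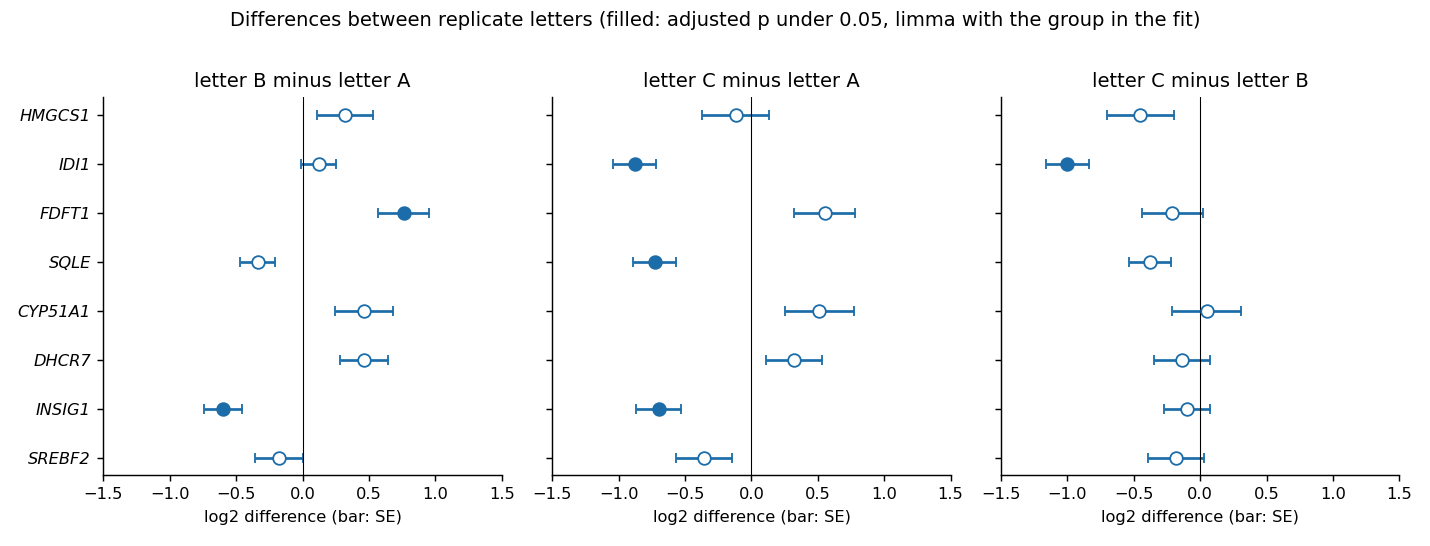
Log2 difference (horizontal axis) with its SE between replicate letters for the brightest probe of each gene, with the group in the fit, filled where the adjusted p was under 0.05. INSIG1 and SQLE lie below 0 and FDFT1, CYP51A1 and DHCR7 above 0 against letter A in both other letters, and IDI1 is at -0.88 and -1.0 in letter C against letters A and B.

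The 8 genes had no common sign between letters. Against letter A, SQLE, INSIG1 and SREBF2 stood below 0 in both other letters (-0.34 and -0.73, -0.60 and -0.70, -0.18 and -0.36), while FDFT1 (0.76 and 0.55), CYP51A1 (0.46 and 0.51) and DHCR7 (0.46 and 0.32) stood above 0 in both. This grouping was made on the brightest probes after the values were seen and has no test of its own. The SREBF2 probes A_73_P091831 and A_73_P148781 were at -0.10 (SE 0.19) and -0.25 (SE 0.15) in letter B minus letter A. In letter C minus letter A they were above 0, at 0.49 (SE 0.23) and 0.03 (SE 0.18).

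Letter and slide row overlap: all letter A arrays lie in row 1, all letter C arrays in row 2, and letter B lies in row 1 as Control B only. With slide row as a block 0 of the 8 genes passed in any letter comparison. INSIG1 was then at -0.47 and -0.53 in letters B and C against A (adjusted p of 0.349 for each), FDFT1 at 0.98 (0.203) and SQLE at -0.80 (0.192). IDI1 was at -0.87 against letter A (0.172) and -1.0 against letter B (0.0863). With row in the fit, letter B minus letter A is Control B minus Control A only, such as 0.98 for FDFT1. Letter C minus letter A adds to that the difference between letters C and B in row 2. Letter and row therefore cannot be told apart in the differences from letter A. The IDI1 difference between letters C and B was as large within row 2 (-1.0, SE 0.18, adjusted p = 0.0981), a setting added after the data were seen. With 7 of the 8 arrays most calls were lost as well, with fewer arrays in the fit. INSIG1 in letter B (adjusted p of 0.0884 to 0.129) and IDI1 in letter C minus letter B (0.0685 to 0.40) lost them when any 1 of the 8 arrays was left out. FDFT1 kept its call only without TAT A (0.99, adjusted p = 0.0345), and SQLE and INSIG1 in letter C kept theirs only without Gp120 B (-0.72 and -0.72, adjusted p of 0.0427 and 0.0446). IDI1 in letter C minus letter A lost its call without TAT A, TAT C, Gp120 A or Gp120 C (-0.89, -0.84, -0.87 and -0.93, adjusted p of 0.0668, 0.153, 0.0557 and 0.173). Left out 1 at a time, the arrays moved these differences to no less than 0.53 and no more than 1.05 in size.

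Pericyte and smooth muscle markers moved with the letters: 3 of 5 were called higher in letter B than in letter A, and their summed level, as a multiple of the 75th percentile, was 90.2 to 154 on letter A arrays, 181 to 283 on letter B arrays and 148 to 178 on letter C arrays. The summed level of 6 Müller glia markers was 320 to 413, 287 to 393 and 331 to 350, with 0 and 1 called higher in letters B and C. Among microglia markers 0 of 8 were called, with sums of 278 to 352, 230 to 308 and 267 to 313. Markers of 3 other types summed higher on all letter A arrays than on the rest. Those of astrocytes (3 of 5 tested, GFAP well above background on 2 arrays) summed to 6.13 to 8.04, 4.92 to 5.28 and 4.81 to 5.35. Those of endothelium (3 of 4, CDH5 on 0 arrays) summed to 3.98 to 4.26, 2.71 to 3.52 and 2.1 to 3.21, and those of retinal neurons (2 of 6, PDE6B on 0 arrays) to 3.16 to 4.32, 1.26 to 3.11 and 0.769 to 1.04. In letter C against letter A, 1 astrocyte and 1 retinal neuron marker were called lower. There 1 endothelium marker was called higher, against the direction of its summed list. The part of these cell types in the letter differences of the cholesterol genes was not tested.

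The wider pathway was read from 6 lists of 69 genes, of which 63 were tested, 55 of them outside the 8. In TAT minus Control and Gp120 minus Control 0 of the 63 were called, as over all genes. For the counts of lower genes that follow, 56.2% of all genes were lower in TAT and 53.6% in Gp120. Of 9 mevalonate and isoprenoid genes 7 were lower and 2 higher in TAT (median -0.17), and 5 and 4 in Gp120 (median -0.01). MVD, mevalonate diphosphate decarboxylase, was at -0.54 (SE 0.26) and -0.37 (SE 0.26), and PMVK, the phosphomevalonate kinase before it, at -0.17 (SE 0.19) and -0.13 (SE 0.19). Of 12 sterol ring genes 6 were lower in TAT and 5 in Gp120, with medians of -0.02 and 0.04. Here NSDHL, which removes the C4 methyl groups with others, was at -0.50 (SE 0.22) in TAT and -0.21 (SE 0.22) in Gp120, the methylsterol monooxygenase MSMO1 at -0.48 (SE 0.26) and -0.08 (SE 0.26), HSD17B7 of the same complex at -0.63 (SE 0.41) and -0.66 (SE 0.41), and LBR, which has sterol reductase activity in the nuclear envelope, at 0.31 (SE 0.40) and 0.70 (SE 0.40).

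Of 12 genes that sense sterol and process SREBP 8 were lower in TAT and 6 in Gp120 (medians -0.08 and -0.02). The INSIG1 paralogue INSIG2 was at -0.37 (SE 0.28) and -0.38 (SE 0.28), the protease MBTPS2 that releases SREBP at -0.36 (SE 0.18) and -0.23 (SE 0.18), and SREBF1, whose product drives fatty acid synthesis, at 0.10 (SE 0.37) and 0.74 (SE 0.37). Uptake and lysosomal export genes were split (5 of 9 lower in TAT and 4 of 9 in Gp120). VLDLR, a receptor for triglyceride-rich lipoproteins, was at -0.18 (SE 0.31) in TAT and -0.95 (SE 0.31, adjusted p = 0.998 in limma) in Gp120, with 2.74 and 2.62 in Control, 2.88, 2.52 and 2.1 in TAT, and 2.19, 1.56 and 1.45 in Gp120. All 3 Gp120 arrays lay below both Control arrays. The lysosomal lipase LIPA was at -0.42 (SE 0.19) in TAT and -0.19 (SE 0.19) in Gp120.

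Of 11 efflux, oxysterol and storage genes 9 were lower in TAT and 8 in Gp120 (medians -0.17 and -0.18). HSD3B7 of bile acid synthesis was at -0.55 (SE 0.42) and -0.70 (SE 0.42), the oxysterol hydroxylase CYP7B1 at -0.08 (SE 0.55) and -1.06 (SE 0.55), and the oxysterol receptor gene NR1H3 at -0.30 (SE 0.25) and -0.10 (SE 0.25). Fatty acid genes under SREBP1 had medians of 0.12 and 0.04, with 6 of 10 higher for each protein. Their desaturases SCD and FADS2 were at -0.71 (SE 0.40) and 0.43 (SE 0.35) in TAT and at -0.27 (SE 0.40) and 0.21 (SE 0.35) in Gp120, and the carboxylase ACACA was at 0.05 (SE 0.42) and 0.41 (SE 0.42). None of these differences passed adjustment.

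Between letters 9 of the 63 were called in letter B minus letter A (3 higher and 6 lower, 14.3%), 10 in letter C minus letter A (3 higher and 7 lower, 15.9%) and 1 in letter C minus letter B (1.59%), near the shares over all genes. HSD17B7 was lower in both (-0.71 with SE 0.15 and -0.93 with SE 0.17), in the direction of SQLE, and LBR was higher in letter C by 1.0 (SE 0.19). FDPS, which makes farnesyl diphosphate just before FDFT1, stood at 2.78 and 3.75 in Control, 3.12, 3.81 and 3.42 in TAT, and 2.70, 3.69 and 3.36 in Gp120. It was higher in letter B than in letter A by 0.89 (SE 0.15, fold 1.85, adjusted p = 0.0147) and was named after its values were seen, since it neighbours FDFT1 in the pathway.

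**Figure D5:**
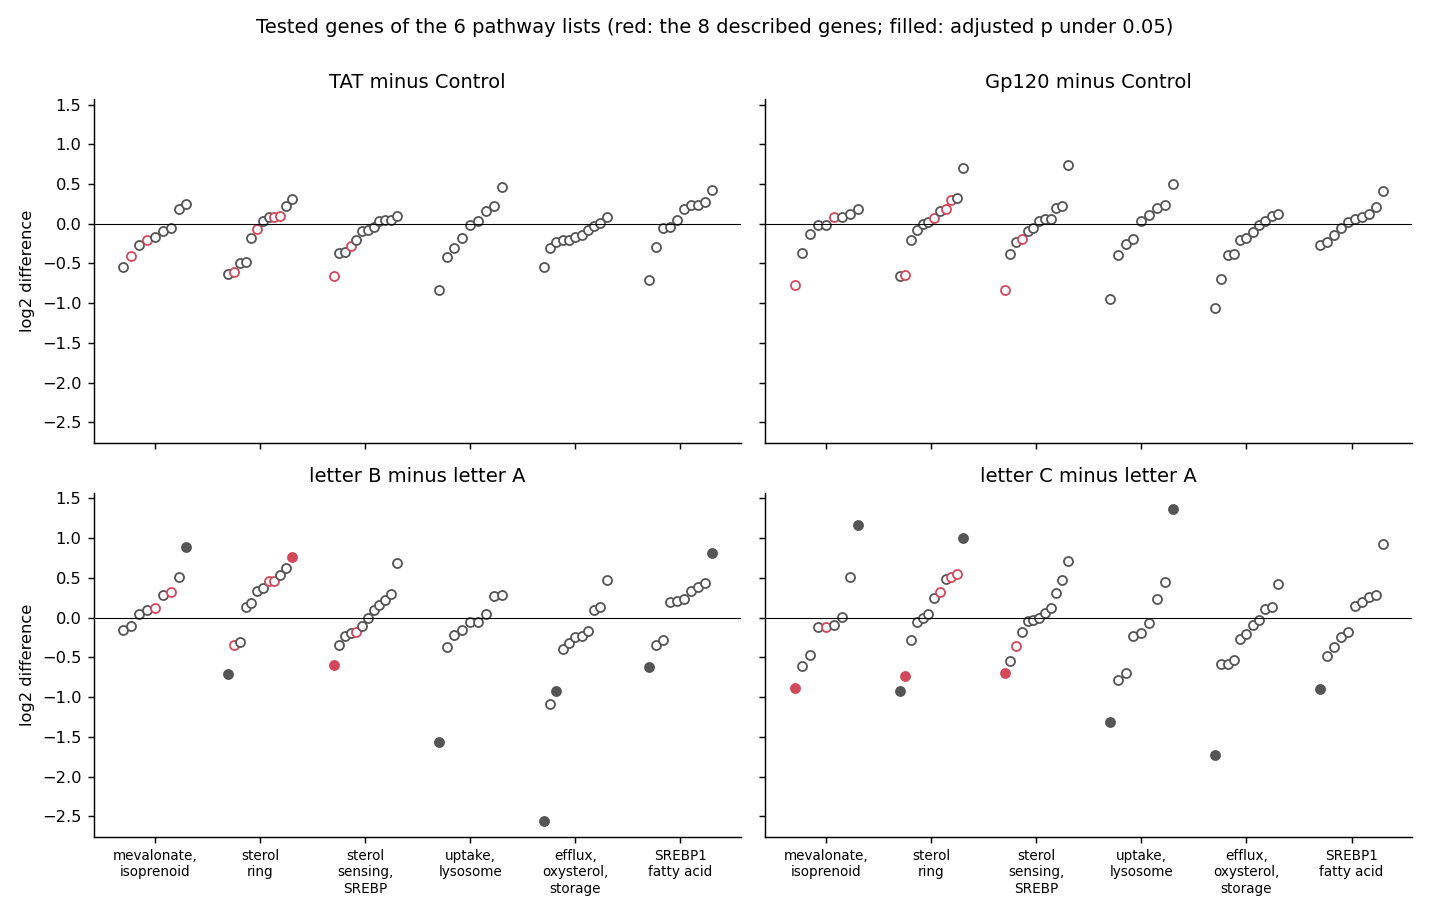
Log2 difference (vertical axis) of each tested gene of the 6 pathway lists, sorted within its list, for both proteins against Control (top) and for letters B and C against A (bottom), with the 8 described genes in red and filled symbols at an adjusted p under 0.05. No symbol is filled in the top panels, and 9 and 10 are filled in the bottom panels, on both sides of 0.

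Over all 8 arrays the brightest probe of IDI1 had the widest range of the 8 genes (1.44, wider than in 74.7% of genes), followed by INSIG1 (1.32), SQLE (1.21), FDFT1 (1.20), CYP51A1 (1.01), HMGCS1 (0.92), DHCR7 (0.68) and SREBF2 (0.58, wider than in 17.2% of genes). The median gene had a range of 0.96. SQLE and INSIG1 were highest in Control A, FDFT1 and CYP51A1 lowest there, and SQLE, HMGCS1 and SREBF2 lowest in TAT C. The mean of the 8 standardised profiles was highest in Control B (0.95) and lowest in TAT C (-0.72). Over the 8 arrays the profiles most like that mean belonged to TSEN54 (Pearson r 0.93), PRLH (0.91), TUBGCP6 (0.91), ASRGL1 (0.89) and ADTRP (0.89), given as a description of arrays that share a slide and letters.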

How the data were processed

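RNA of each sample was labelled with Cy3 and hybridised to 1 Agilent bovine array. Per the file headers, Agilent Feature Extraction 11.5.1.1 gave the deposited intensity of each spot, which the authors left unscaled between arrays; background was already subtracted. The authors also deposited a table of log2 values per gene name, used as an alternative. No source used here says how that table was made. After a shift per array its values lay within 0.02 of the scanner values for 98.0% and 97.8% of single-probe names on Gp120 B and C, but for only 8.5% to 15.2% on the others. Its column medians ran from -3.33 to -3.179, so it is not centred on genes.

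Log2 processed signals were taken relative to the 75th percentile of their array, without control spots and outlier spots (4 to 37 per array). A probe was kept if every array of some group read it well above background (31591 of 51282, of which 31546 were complete). Names came from a RefSeq gene table of assembly ARS-UCD2.0, by accession for 29887 probes, symbol for 5520 and synonym for 149, and 15726 remained unnamed. The brightest kept probe stood for each of 12062 genes. All 8 arrays were fitted with limma 3.58.1 (R 4.3.3; lmFit and eBayes, two-sided, Benjamini-Hochberg over all genes, threshold 0.05), by group for the proteins and by group plus letter for the letters. The code was tested on simulated data. The number of arrays limits the precision.

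The sample titles give the letters. Each array's deviations from its group mean were correlated with those of every array in another group: this gave 0.372 to 0.743 where the letter was shared, and -0.653 to 0.416 where it was not. All 7 same-letter values exceed 0.1, and the letters were taken to pair the arrays. Control B, however, gave 0.406 and 0.372 with TAT B and Gp120 B, and 0.416 and 0.389 with TAT C and Gp120 C. The check therefore cannot tell letter B from letter C for Control B, whose pairing rests on the titles. Deviations of the 2 Control arrays mirror each other (correlation -1), so their values are not independent.

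The 8 genes, the lists and the tests were chosen with earlier results of these data known. By rule, the text also names the 2 genes of each list with the smallest p for each protein, and the 5 most alike profiles. Some genes that this rule picks are not reported here. Probe positions are those of build Btau_3.1, whose exon and UTR annotation was not used here. Tables and plots were made in Python 3.11.15 with pandas 2.3.3, numpy 2.4.6 and matplotlib 3.10.9.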

Additional observations from a re-analysis of the deposited data

How the results depend on the processing

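For both proteins against Control, for TAT minus Gp120 and for the mean of both, 0 of the 8 genes passed under any alternative. Their signs changed in 11 of 184 recomputed values for TAT minus Control, 35 of 184 for Gp120 minus Control, 25 of 184 for TAT minus Gp120 and 29 of 184 for the mean. Genes past the threshold over the whole array numbered 4, 4, 16 and 1 with the deposited table. Leaving out 1 array gave 0 to 1 for TAT, Gp120 and the mean, the 1 arising without Control A, and 0 to 2 for TAT minus Gp120, the 2 arising without Gp120 A. With the letters as a replicate block and without Control A there was 1 gene each for TAT, Gp120 and the mean, and the block changed no other call. The median over the 8 genes for Gp120 was -0.37 with the replicate block without Control A, -0.32 with scan as a block, in slide row 1 alone or in scan 2 alone, and between -0.32 and 0.12 with 1 array left out. Scan as a block, slide row 1 alone and scan 2 alone all set only Gp120 A against both Control arrays, so they are the same comparison for Gp120. The median for TAT minus Gp120 was 0.2 in slide row 1 alone. The median of the mean of both was between -0.39 and 0.05 with 1 array left out, lowest without Control A.

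Counts of letter differences moved more. For letter B minus letter A, 1894 genes fell to 1039 with no filter, 756 in the deposited table, 47 with slide row as a block, 814 with scan as a block and 709 to 1036 with 1 array left out. Of the 8 genes 1 passed with median scaling, with the mean of all probes or without the group in the fit, 0 with no filter, the table, slide row or scan, and 0 to 1 with 1 array left out; INSIG1 turned to 0.7 in the table, where its values switch between probes. For letter C minus letter A, 2055 genes fell to 1061 with no filter, 801 in the table, 113 with slide row, 1005 with scan and 168 to 1967 with 1 array left out. Of the 8 genes 1 passed with no filter or the table, 0 with slide row or scan, and 0 to 3 with 1 array left out. For letter C minus letter B, 193 genes became 38 with no filter, 53 in the table, 96 with slide row, 293 without the group, 111 in slide row 2 alone (added after the data were seen) and 14 to 149 with 1 array left out. Of the 8 genes 0 passed there with median scaling, no filter, the mean of all probes, the table, slide row, scan, slide row 2 alone or any 1 array left out. Some of these settings used fewer arrays, while with no filter more genes were tested (16902 beside 12062). The cause of the changed counts was not tested. Signal limits SREBF2 A_73_P371690 and INSIG1 A_73_P429676, which were well above background on 3 and 5 arrays.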

Other observations

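Outside the 8 genes, the widest differences between letters B and A among the pathway lists were those of CH25H and LRP8, singled out after their values were seen. CH25H, which makes the oxysterol 25-hydroxycholesterol, stood at 3.37 and 1.21 in Control A and B, at 3.77, 1.13 and 2.0 in TAT A, B and C, and at 3.50, 0.62 and 1.62 in Gp120 A, B and C. All 3 letter A arrays lay above the other 5, and letter B minus letter A was -2.56 (SE 0.18, fold 0.17, adjusted p = 0.00168 in limma) and letter C minus letter A -1.73 (SE 0.21, fold 0.30, adjusted p = 0.006). LRP8, a receptor of the lipoprotein receptor family that also binds reelin, stood at -0.34 and -2.41 in Control, at -1.19, -2.89 and -2.56 in TAT, and at -1.13, -2.04 and -2.13 in Gp120. Its differences were -1.56 (SE 0.23, adjusted p = 0.0116) and -1.31 (SE 0.27, adjusted p = 0.0262). Called besides were MVK (1.17 in letter C, SE 0.24), MYLIP (1.37 in letter C, SE 0.32), HSD3B7 (-0.93 in letter B, SE 0.16), ELOVL5 (-0.62 and -0.90, SE 0.16 and 0.19) and SCD (0.81 in letter B, SE 0.18). Letter and slide row overlap for these genes as for the others.

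Of the 8 genes, 2 jump between arrays in the table that the authors deposited. INSIG1 is given as -0.76 and 2.72 for Control A and B, as 2.74, -1.15 and -1.29 for TAT A, B and C, and as -0.72, 1.80 and 1.81 for Gp120 A, B and C, a range of 4.03 where its brightest probe has 1.34 on the same shifted scale. On Control B, TAT A, Gp120 B and Gp120 C the table value lies within 0.04 of the brightest INSIG1 probe. On the other 4 arrays it lies 3.26 to 3.90 below that probe and within 0.73 of the mean of both probes. SREBF2 is given as 0.30 and 1.83, as 0.35, 0.28 and 0.15, and as 1.94, 4.57 and 1.92, a range of 4.42 against 0.60 for its brightest probe. On Control A and the 3 TAT arrays the SREBF2 value lies within 0.26 of the mean of its 4 probes, and on the other 4 arrays 1.65 to 5.02 above it. For the other 6 genes the table lies within 0.07 of the mean of all probes on every array. From the table, INSIG1 and SREBF2 therefore cannot be compared between arrays as 1 quantity.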
